A study of Mus musculus with 10 samples.

Results

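Cyp2b9, Cyp2b10, Cyp2b13, Nr1i3, Nr1i2 and Por were followed in mouse liver as a set of 6 genes: 3 cytochromes P450 of the Cyp2b subfamily, the nuclear receptors known as CAR (Nr1i3) and PXR (Nr1i2), and the reductase that passes electrons to P450 enzymes (Por). They were chosen by gene symbol, with earlier results of these arrays in view. Of the 6 genes, 5 were measured, by 6 of the 23438 probes on the array, and they were 5 of the 16383 genes with a probe of their own name. No probe carried the symbol Por in the platform annotation, so Por is not analysed here. Probes 10024400959, 10024399348 and 10024393640 measured Cyp2b9, Cyp2b10 and Cyp2b13, probe 10024400009 measured Nr1i2, and Nr1i3 had 2 probes that were averaged. Because the set was chosen on the difference between the genotypes and on the correlations of the Cyp2b genes with the receptors, those differences and correlations are given as descriptions, without a test.

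Total RNA of whole liver came from 6 mice labelled Tgfbr2+/-, heterozygous for a knockout of the type II receptor of transforming growth factor beta, and from 4 wild-type littermates. All were on a chow diet, and each was set on a 2-colour array against pooled RNA from the livers of 6 wild-type mice. The titles name the heterozygous mice as males and state no sex for the wild-type mice or the pool. Age, strain, and the promoter or Cre behind the allele are not given in the sources used here.

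Values of single livers and group means are log2 ratios over the pool, so that 0 means the level of the pool and -1 means the pool was 2-fold higher. A difference is always the Tgfbr2+/- mean minus the wild-type mean on this scale. The ratios carry no absolute level, so one gene's level cannot be set against another's, and hepatocyte identity could not be checked from marker levels. The labels do not say which channel is the numerator. A sample-over-pool direction is likely, and all signs would turn if it were the reverse. Wild-type replicate 1 and Tgfbr2+/- replicate 5 correlated at -0.32 over all probes, so results are also given with either one's sign turned. As deposited, Tgfbr2 averaged over its probes was at -0.49 in Tgfbr2+/- replicate 5, below every wild-type library. Turned, it would lie above every wild-type library, the highest of which was at 0.37. Wild-type replicate 1 was at 0.23, and turned it would lie below every other wild-type library. Which sign is right was not tested. Tgfbr2 itself, averaged over its probes, was at 0.23, 0.37, -0.07 and 0.08 in the wild-type libraries and between -0.50 and 0.05 in the heterozygous ones; 1 of its 2 probes differed by -0.88 and the other by -0.07. The library labelled Tgfbr2+/- replicate 4 was the one at 0.05, inside the wild-type range of this average. On the probe that differed by -0.88 it was at 0.20, where the wild-type libraries ran from -0.29 to 0.64. On the other probe it was at -0.10, below the lowest wild-type library at 0.04. The heterozygous libraries ran from -0.12 to 0.28 on that probe, so its groups overlapped. Whether the label of replicate 4 is right was not tested. The differences of the Cyp2b genes are given without Tgfbr2+/- replicate 4 too.

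CAR and PXR are ligand-sensing transcription factors of hepatocytes that bind DNA together with the retinoid X receptor and switch on genes that oxidise, conjugate and export drugs, steroids and bile acids. CAR is held in the cytoplasm until an activator such as phenobarbital releases it, so its activity is set largely after transcription, and Cyp2b10 is its standard target gene in mouse liver. Cyp2b9 and Cyp2b13 are close relatives of Cyp2b10 that are known to be more abundant in female than in male mouse liver. All 3 enzymes need electrons from Por and a haem group to work.

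The bases just before each gene's start are shown because the 3 Cyp2b genes varied together over the libraries with different amplitude; the sequences were not tested against that amplitude. They are from RefSeq on build GRCm38.p6, plus strand, 250 bases each, at chr7:26173159-26173408 for Cyp2b9, chr7:26061245-26061494 for Cyp2b13 and chr7:25897408-25897657 for Cyp2b10. Capitals mark AGGTCA, the core hexamer that many nuclear receptors recognise.
Cyp2b9: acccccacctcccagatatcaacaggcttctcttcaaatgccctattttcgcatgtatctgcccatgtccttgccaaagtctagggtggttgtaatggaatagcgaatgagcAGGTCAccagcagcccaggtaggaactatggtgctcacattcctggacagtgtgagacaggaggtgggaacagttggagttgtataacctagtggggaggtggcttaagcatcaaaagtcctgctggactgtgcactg
Cyp2b13: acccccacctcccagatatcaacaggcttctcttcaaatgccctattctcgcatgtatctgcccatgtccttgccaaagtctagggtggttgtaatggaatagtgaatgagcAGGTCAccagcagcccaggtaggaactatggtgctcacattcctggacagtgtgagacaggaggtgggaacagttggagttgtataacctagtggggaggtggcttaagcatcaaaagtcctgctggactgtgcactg
Cyp2b10: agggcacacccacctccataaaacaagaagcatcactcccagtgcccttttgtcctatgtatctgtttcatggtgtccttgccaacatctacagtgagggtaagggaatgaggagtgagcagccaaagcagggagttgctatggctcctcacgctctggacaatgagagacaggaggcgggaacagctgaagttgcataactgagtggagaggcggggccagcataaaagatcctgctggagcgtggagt
The Cyp2b9 and Cyp2b13 windows were identical at 248 of 250 bases. Their differences, counted from 1 at the 5′ end of the window with the base of Cyp2b9 first, were T48C and C104T. The Cyp2b10 window matched that of Cyp2b9 at 71.0% of aligned positions. AGGTCA stood at bases -138 to -133 before the start of both Cyp2b9 and Cyp2b13, and these letters were absent from the Cyp2b10 window on either strand. They were also in the windows of Cyp2b23, at -164 to -159, and Cyp2b19, at -121 to -116, subfamily members described further on whose differences were smaller or of the other sign. The hexamer, searched on both strands, is common: it was present in 14.0% of 32851 windows of this length in the same table. A direct repeat of AGNTCA with 4 bases between the copies, and the STAT core TTCNNNGAA were in 0.103% and 7.02% of the windows and in none of these 3. Bases farther upstream were not searched. Absence from a window of 250 bases therefore does not show that a gene lacks such an element. A match is a description of the letters, not of a bound site.

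Cyp2b9 spanned the widest range of the set. The wild-type libraries, replicates 1 to 4, were at 0.30, -0.12, 0.32 and -1.42. The heterozygous libraries had a lowest value of -3.42 (replicate 2), a median of -2.04 and a highest value of -0.75 (replicate 3). So 4 of the 6 heterozygous libraries lay below every wild-type library, and the groups overlapped because wild-type replicate 4 was low and heterozygous replicates 3 and 6 were the least reduced. The means were -0.23 ± 0.82 (SD, n = 4) and -2.09 ± 0.99 (SD, n = 6). The difference of -1.86 (SE 0.52) is a 3.63-fold lower level in the heterozygous livers.

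Cyp2b13, the near copy of Cyp2b9 in its upstream sequence shown above, followed the same order of libraries almost exactly. It was at 0.21, -0.69, -0.11 and -1.26 in the wild-type livers. In the heterozygous livers it was lowest in replicate 2 at -3.00, at a median of -2.05, and highest in replicate 3 at -0.86. Again 4 of 6 heterozygous libraries lay below the wild-type range, and wild-type replicate 4 sat among the heterozygous values. The means were -0.46 ± 0.65 (SD, n = 4) and -1.99 ± 0.94 (SD, n = 6), a difference of -1.53 (SE 0.47) or 2.89-fold.

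Cyp2b10, the CAR target, had the smallest difference of the 3. Its wild-type values were 0.32, 0.33, 0.67 and -0.77. The heterozygous values ran from -1.22 in replicate 2, through a median of -0.93, to -0.21 in replicate 3. As for its relatives, 4 of 6 heterozygous libraries were below the lowest wild-type library, which was replicate 4. The means were 0.14 ± 0.63 (SD, n = 4) and -0.84 ± 0.37 (SD, n = 6), and the difference of -0.98 (SE 0.27) is 1.97-fold. From the lowest to the highest of the 10 libraries, Cyp2b10 varied 3.70-fold, Cyp2b13 9.22-fold and Cyp2b9 13.4-fold. Whether the probes differ in how fully they report a change was not tested.

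All 5 measured genes had a mean difference below 0, against 47.4% of all genes. None of the 5 had groups that did not overlap; that held for 1.08% of genes, and 0.354% were lower in every heterozygous than in every wild-type library. Across all genes, limma with Benjamini-Hochberg adjustment called 0% between the genotypes at an adjusted p of 0.05, while 5.54% had an unadjusted p under 0.05. The mean of the 3 Cyp2b genes differed by -1.46, or 2.74-fold. Leaving out Tgfbr2+/- replicate 4, the library inside the wild-type range for Tgfbr2 averaged over its probes, moved this to -1.53. By gene, it was then -1.94 for Cyp2b9, -1.62 for Cyp2b13 and -1.01 for Cyp2b10. For the mean of the 3, turning wild-type replicate 1 gave -1.32, and turning Tgfbr2+/- replicate 5 gave -0.79. The wild-type mean of the 3 genes rested in part on replicate 4, which was at -1.15 when the other wild-type libraries were between -0.16 and 0.30. Without it the difference was -1.78.

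**Figure D1:**
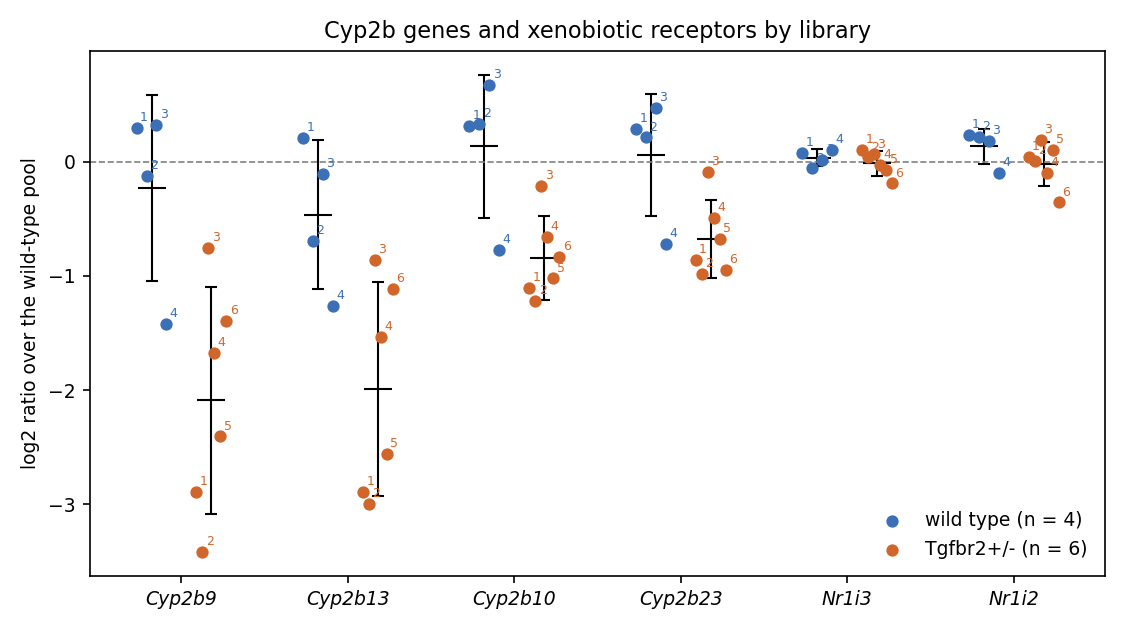
Log2 ratio over the wild-type pool for the 5 measured genes and Cyp2b23, 1 point per library numbered by replicate; bars are means ± SD (wild type n = 4, Tgfbr2+/- n = 6) and the dashed line is the level of the pool. The 3 Cyp2b genes of the set lie below the pool in all 6 heterozygous livers and reach -3.42, while Nr1i3 and Nr1i2 stay between -0.36 and 0.24.

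The heterozygous livers were also set against the pool, a contrast that uses the same libraries by which the genes were chosen. Each of the 3 was below the pool in 6 of 6 heterozygous livers, which was true of 3.35% of all genes. The heterozygous mean was 4.25-fold below the pool for Cyp2b9, 3.98-fold for Cyp2b13 and 1.79-fold for Cyp2b10. Since the rule used these heterozygous and wild-type values, nothing is read from these counts and no p is given for the members. Over all genes, limma called 0.0122% in the heterozygous livers against the pool at an adjusted p of 0.05, with 18.3% at an unadjusted p under 0.05 (7.21% lower). For the wild-type livers against the pool it called 0%, with 4.14% at an unadjusted p under 0.05. Tests against the pool take it as fixed and leave out its own spread. The groups also differ in size, 6 and 4 livers, so these shares are not on an equal footing.

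Over the 10 libraries the Cyp2b genes kept nearly the same order. Cyp2b9 and Cyp2b13 correlated at r = 0.98 (rho 0.99), Cyp2b9 and Cyp2b10 at 0.95 (rho 0.94), and Cyp2b10 and Cyp2b13 at 0.89 (rho 0.92). Within the 6 heterozygous livers alone the values were 0.97, 0.92 and 0.88. Near-identical copies can share probe signal; the probe sequences were not used here, so how much each probe reads its relatives is uncertain.

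**Figure D2:**
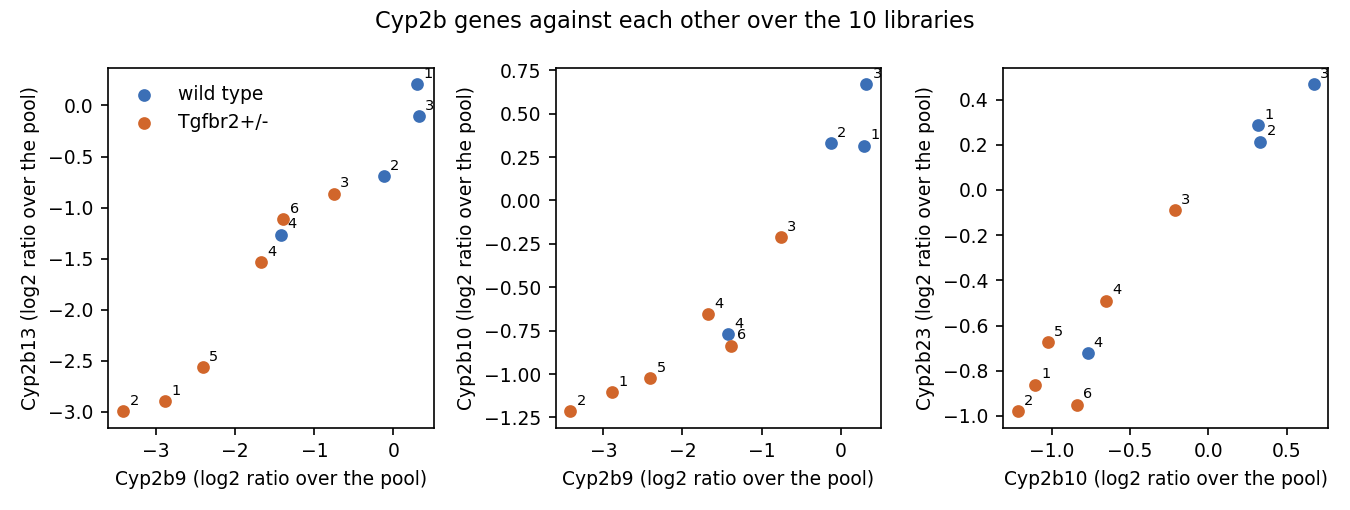
Cyp2b genes plotted against each other as log2 ratios over the pool, 1 point per library numbered by replicate and coloured by genotype. Heterozygous replicates 1, 2 and 5 form the low end and wild-type replicates 1, 2 and 3 the high end in the left and middle panels, with wild-type replicate 4 beside heterozygous replicates 4 and 6.

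These genes were also among the most variable on the array. Only 13 of the 16383 genes had a larger SD over the 10 libraries than Cyp2b9, 22 than Cyp2b13 and 76 than Cyp2b10. The median SD of all genes over the 10 libraries was 0.107. Within the wild-type livers alone, 0.256% of genes had a larger SD than Cyp2b9. That spread rested largely on replicate 4 at -1.42, as the other wild-type libraries were between -0.12 and 0.32.

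The receptor genes varied far less than the Cyp2b genes. Nr1i3 was at 0.08, -0.06, 0.01 and 0.11 in the wild-type livers. In the heterozygous livers it ran from -0.19 in replicate 6, through a median of 0.01, to 0.10 in replicate 1. The groups overlapped nearly whole: 2 of 6 heterozygous libraries lay below the wild-type range. The difference was -0.05 (SE 0.06), or 1.04-fold, and lay between -0.08 and -0.01 with any 1 library left out; it was -0.0094 with wild-type replicate 1 turned and -0.03 with Tgfbr2+/- replicate 5 turned. Its 2 probes gave differences of 0.01 and -0.11 and did not track each other over the libraries (r = -0.25, rho -0.31).

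Nr1i2 was at 0.24, 0.22, 0.18 and -0.10 in the wild-type livers, with replicate 4 apart from the rest. The heterozygous values ran from -0.36 in replicate 6, through a median of 0.02, to 0.19 in replicate 3. Only 1 of 6 heterozygous libraries was below the wild-type range. The difference was -0.15 (SE 0.10), a 1.11-fold lower level. It was -0.03 with wild-type replicate 1 turned and -0.19 with Tgfbr2+/- replicate 5 turned. It was -0.23 without wild-type replicate 4 and -0.09 without Tgfbr2+/- replicate 6.

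The Cyp2b mean correlated with the average of the Nr1i3 probes at r = -0.01 (rho -0.07) over the 10 libraries. The probes differed: r was -0.40 (rho -0.48) for the one whose difference was 0.01, and 0.09 (rho -0.0061) for the other. With Tgfbr2+/- replicate 5 turned these were -0.68 and 0.28, and without the 2 libraries farthest from each probe's median they were 0.18 and 0.33. Of 16380 other genes, 47.9% had a higher correlation with the Cyp2b mean than Nr1i3 had. With Nr1i2 the correlation was 0.43 (rho 0.55), and 13.7% of genes had a higher one. Within the heterozygous livers these became -0.30 for Nr1i3 and -0.13 for Nr1i2.

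By gene, the correlation with Nr1i2 was 0.61 for Cyp2b10, 0.43 for Cyp2b9 and 0.30 for Cyp2b13. The value for Nr1i2 moved with single libraries. Without Tgfbr2+/- replicate 6 and wild-type replicate 4, the livers farthest from the Nr1i2 median, it was 0.73 for the Cyp2b mean. Turning wild-type replicate 1 gave 0.14 and turning Tgfbr2+/- replicate 5 gave 0.19. For Nr1i3, leaving out its 2 most distant livers gave -0.27, and the turned values were -0.23 and 0.06. All libraries share the pool, and they fall partly by genotype, so no p is attached to these correlations.

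**Figure D3:**
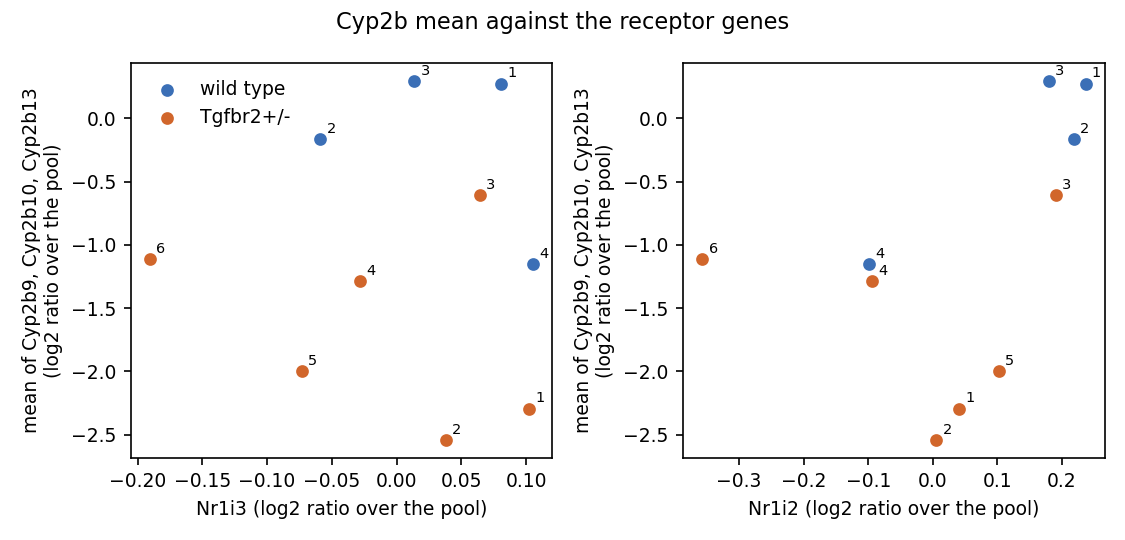
Mean of Cyp2b9, Cyp2b10 and Cyp2b13 (vertical) against Nr1i3 (left) and Nr1i2 (right), as log2 ratios over the pool, 1 point per library numbered by replicate. The heterozygous livers with the lowest Cyp2b mean, replicates 1 and 2, have Nr1i3 at 0.10 and 0.04, and Nr1i2 of the liver at the far left, heterozygous replicate 6, is -0.36.

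The Cyp2b genes lie in a run of Cyp2 genes on chromosome 7. Between Cyp2s1 and Cyp2t4 the RefSeq table for GRCm38.p6 lists 18 protein-coding genes, of which 12 were measured, and 15 pseudogenes. Cyp2b10, Cyp2b13 and Cyp2b9 stand next to each other. Cyp2b23, a further subfamily member beyond the Cyp2a and Nlrp genes, was at 0.29, 0.21, 0.47 and -0.72 in the wild-type livers and between -0.98 and -0.09 in the heterozygous ones. It too was low in wild-type replicate 4 and highest of its group in heterozygous replicate 3. Its difference was -0.74 (SE 0.24), with a limma adjusted p of 0.718, and it correlated with Cyp2b10 at 0.98. Cyp2b19, a subfamily member known mainly from skin, had a difference of 0.17 (SE 0.09), or 0.11 with Tgfbr2+/- replicate 5 turned, and its correlation with the Cyp2b mean was -0.75. The neighbours Cyp2s1 (0.02), Cyp2a4 (-0.17), Cyp2g1 (0.06), Cyp2a12 (0.02) and Cyp2t4 (0.03) differed by little, and none passed the test.

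**Figure D4:**
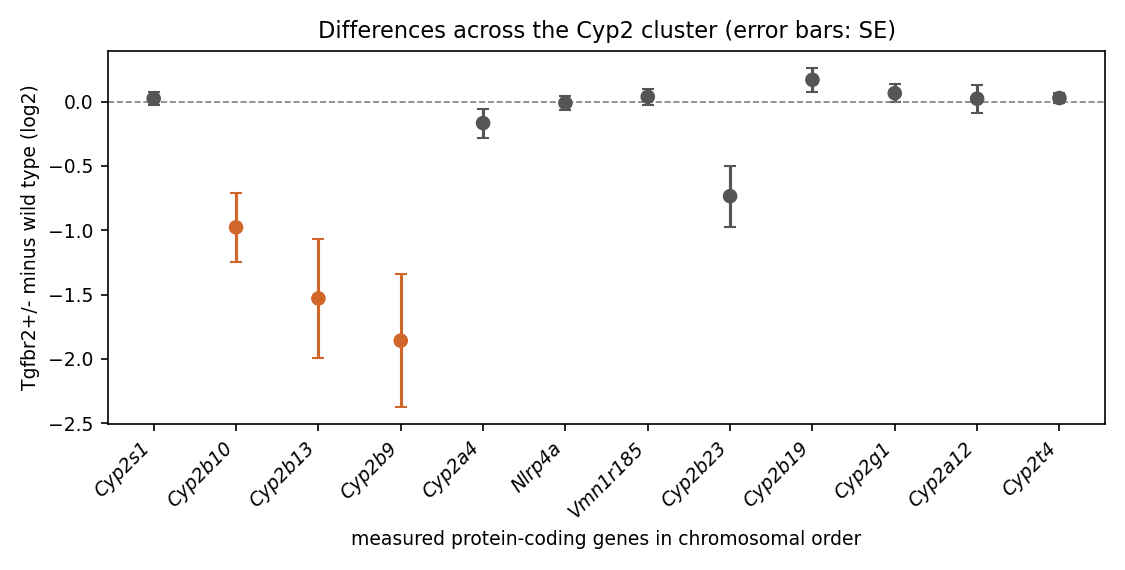
Difference of Tgfbr2+/- minus wild type (log2) for the 12 measured protein-coding genes from Cyp2s1 to Cyp2t4 in chromosomal order, not to scale along the axis; points are estimates, bars are SE, and orange marks the 3 Cyp2b genes of the set. Cyp2b10, Cyp2b13, Cyp2b9 and Cyp2b23 lie between -0.74 and -1.86, and the other 8 between -0.17 and 0.17.

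Genes that CAR and PXR are known to induce in liver were mostly on the low side. Of 45 on the list, which leaves out the members themselves, 38 were measured and 29 of these had a difference below 0. Their median was -0.16, beside 0.0044 for all genes, of which 47.4% were below 0. None passed the adjusted test. At an unadjusted p under 0.05, 0 were higher and 8 lower, where 2.97% and 2.57% of all genes were. With Tgfbr2+/- replicate 5 turned, 25 of 38 were below 0 and the median was -0.04; without wild-type replicate 4 it was -0.09.

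The listed genes with the smallest p were Gstt3, a glutathione transferase, with a difference of -0.64 (SE 0.16), Sult1d1, a sulfotransferase, with -0.66 (SE 0.17), and Cyp3a25 with -0.34 (SE 0.09). Their adjusted p by limma was 0.516, 0.552 and 0.621. With Tgfbr2+/- replicate 5 turned, the difference was -0.26 for Gstt3 and -0.42 for Sult1d1. Cyp3a11, the standard PXR target, differed by -0.16 (SE 0.20). Cyp2c29 and Cyp2c55, known CAR targets, differed by -0.11 (SE 0.12) and -0.26 (SE 0.29). The exporter Abcc3 differed by -0.30 (SE 0.12), or -0.11 with that library turned, and Aldh1a1, which oxidises retinal, by -0.06 (SE 0.12). No probe was named Cyp2a5, Ugt1a1 or Gsta1, and these are not analysed here. The lowest difference on the whole list was -0.82, in a gene not named here. None reached the difference of -0.98 of Cyp2b10, and the gaps between genes were not tested.

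Receptor partners, coregulators and cofactors had median differences near 0. Of 17 of 20 partners and coregulators measured, 10 were below 0, with a median of -0.01, where 47.4% of all genes were below 0. Rxra, the retinoid X receptor that pairs with CAR and PXR, differed by -0.01 (SE 0.04). Nr0b2, the orphan receptor SHP that represses other nuclear receptors, had the smallest p of the list, a difference of 0.44 (SE 0.14; 0.28 with Tgfbr2+/- replicate 5 turned) with a limma adjusted p of 0.732. Med1 and Ncoa6, coactivators, differed by -0.12 and -0.14. Among 14 of 17 genes of P450 electron transfer and haem supply, 6 were below 0 and the median was 0.02. Alas1, the first enzyme of haem synthesis, differed by -0.21 (SE 0.21) and Hmox1, which degrades haem, by 0.25 (SE 0.10), or 0.12 with wild-type replicate 1 turned. Cyb5b and Cyb5r3, electron carriers, differed by 0.29 and 0.28. Of other sensing receptors, 12 of 14 were measured and 3 were below 0, with a median of 0.03. Ahrr differed by 0.17 (SE 0.05; 0.09 with Tgfbr2+/- replicate 5 turned), Ppara by 0.18 (SE 0.06), Nr3c1 by 0.14 and Ahr by -0.04 (SE 0.12). None of the genes on these 3 lists passed the adjusted test. Across 25 of 36 other Cyp2 genes, 13 were below 0 and the median was -0.04. At an unadjusted p under 0.05 by limma, 4 were lower and 0 higher, where 2.57% and 2.97% of all genes were. The 4 were Cyp2b23, Cyp2j5 (-0.19, or -0.13 with Tgfbr2+/- replicate 5 turned), Cyp2d22 (-0.16) and Cyp2c54 (-0.22).

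Sex-biased liver genes lay to opposite sides. Of 27 of 33 measured genes known to be higher in female liver, 22 were below 0 with a median of -0.19, where 47.4% of all genes were below 0. Their per-library median ran from -0.01 to 0.06 in the wild-type and from -0.28 to -0.02 in the heterozygous livers. Hao2 differed by -0.53 (SE 0.17), Cyp3a16 by -0.37 (SE 0.12), and Gstt3, also a CAR and PXR target, by -0.64. With Tgfbr2+/- replicate 5 turned, Hao2 differed by -0.0712 and Gstt3 by -0.26. Of 23 of 29 genes higher in male liver, 18 were above 0 with a median of 0.20. Ugt2b38 differed by 1.48 (SE 0.51), Cyp7b1 by 0.46 (SE 0.17) and Alas2 by 0.15. Turning wild-type replicate 1 gave 0.91 for Ugt2b38 and 0.28 for Cyp7b1, and turning Tgfbr2+/- replicate 5 gave 0.83 and 0.28. No gene of either list passed the adjusted test. At an unadjusted p under 0.05 by limma, 6 female-biased genes were lower and 0 higher. In the male-biased list 7 were higher and 0 lower. Of all genes, 2.57% were lower and 2.97% higher. Of 8 Y-linked genes 5 were measured, with a median difference of -0.03. Sry differed by -0.05 (SE 0.06), Kdm5d by -0.08 (SE 0.10) and Uty by 0.04 (SE 0.08). The per-library median of the 5 ran from -0.04 to 0.06 in the wild-type and from -0.04 to 0.17 in the heterozygous livers. The titles give sex for the heterozygous mice only. With Tgfbr2+/- replicate 5 turned, the female-biased median was -0.07 and the male-biased median 0.08. With wild-type replicate 1 turned the male-biased median was 0.10, and without it 0.12. The part of sex or of sex-biased hormonal state in the Cyp2b difference was not tested. The CAR and PXR targets not on the female-biased list had a median of -0.13 (24 of 33 below 0), and the female-biased genes not on the target list also -0.13 (17 of 22 below 0).

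**Figure D5:**
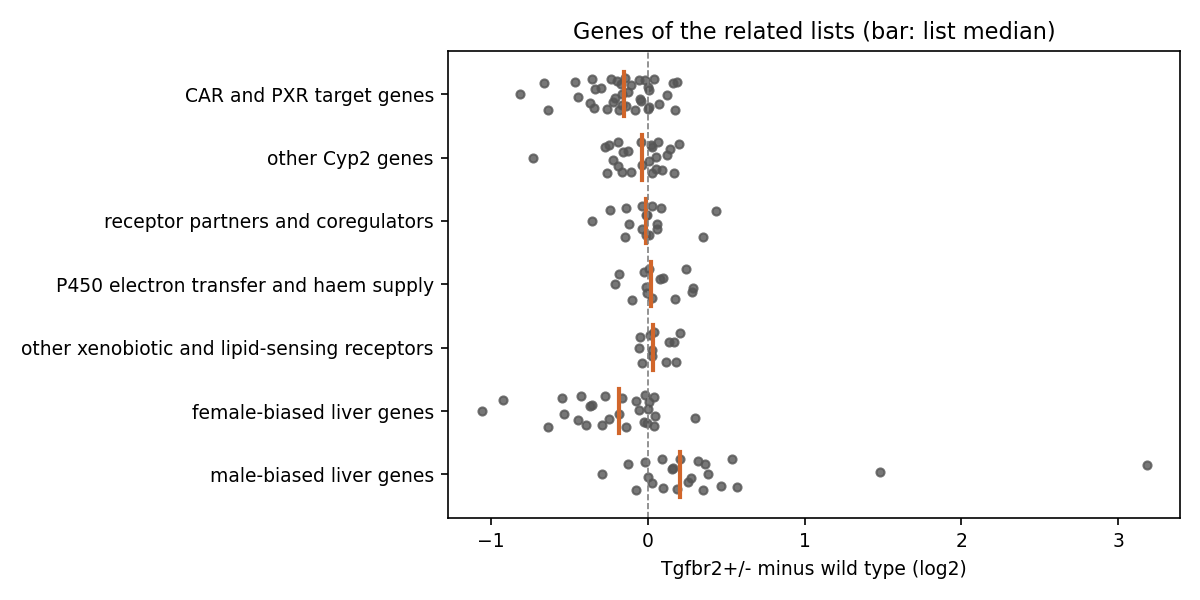
Difference of Tgfbr2+/- minus wild type (log2) for each measured gene of 7 lists, 1 grey point per gene with an orange bar at the list's median. The CAR and PXR targets centre at -0.16 and the female-biased genes at -0.19, the male-biased genes centre at 0.20 with Moxd1 far right at 3.18, and the other lists centre between -0.04 and 0.03.

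Markers of resident macrophages were mostly on the high side. Of 15 of 16 Kupffer cell and macrophage markers measured, 13 were above 0 and 11 were higher at an unadjusted p under 0.05 (2.97% of all genes were), with a median difference of 0.43 (0.29 with wild-type replicate 1 turned, 0.34 with Tgfbr2+/- replicate 5 turned). Their per-library median was between -0.26 and -0.13 in the wild-type and between 0.02 and 0.26 in the heterozygous livers. The median difference of 12 of 16 hepatocyte markers was 0.01, with none past the unadjusted threshold. In whole liver, fewer cells of a type and less RNA per cell cannot be told apart, and the part of cell composition in the Cyp2b difference was not tested.

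Over the 10 libraries, and among 2295 genes outside the set that varied by an SD of at least 0.2, the genes most like the Cyp2b mean in r were Htra3 (r = 0.94), Sult1d1 (0.93), Zbed5 (0.91), Gstt3 (0.90), Cyp2b23 (0.90) and Ccnl1 (0.90). The most opposed, picked after their values were seen, were Col5a3 (-0.98), Cyp7b1 (-0.93) and Csf2rb2 (-0.92). Cyp7b1, which hydroxylates oxysterols, is a male-biased gene. Col5a3, a collagen chain, was above the wild-type range in 6 of 6 heterozygous livers. Its mean was 0.17 ± 0.18 (SD, n = 6) against -0.21 ± 0.09 (SD, n = 4). Groups did not overlap, in either direction, for 1.08% of all genes. A gene picked for opposing the Cyp2b mean is likely to differ by genotype, so nothing is read from this count. Its r was -0.77 with wild-type replicate 1 turned and -0.90 with Tgfbr2+/- replicate 5 turned. For Nr1i3 the most alike were Nek5 (0.90), Dcxr (0.84), Olfr482 (0.84) and Mia2 (0.84). These are descriptions over libraries that share a pool and carry no p.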

How the data were processed

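Liver RNA of 6 Tgfbr2+/- and 4 wild-type mice was compared with a wild-type pool on 2-colour arrays, 1 deposited column per mouse. RNA was cleaned on RNeasy columns with DNase, per the labels' protocols, and amplified and labelled with aminoallyl MessageAmp II chemistry, with Cy3 and Cy5. The deposited values are log10 ratios. The base was inferred, since 8 values lie at exactly 2 or -2; column medians were 0.0013 to 0.0047, so columns are centred. Scale and direction stay unknown from the labels. The series text states that dyes were swapped, but how swaps enter a column, the scanner, the background correction and the normalization are not given in the sources used here. No raw intensities were used.

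The deposited ratios times 3.3219 gave log2 ratios, which were averaged per gene symbol; probes with several symbols (50) or none (5662) were left out. Groups were compared with limma 3.58.1 in R 4.3.3 (lmFit, eBayes, both groups in 1 fit), with Benjamini-Hochberg adjustment over all 16383 genes; group means were tested against the pool in the same fit, for counts over all genes only. Python 3.11.15 was used for the rest. The limma step was tested on simulated data. The number of arrays limits the precision. The labels name separate mice only by replicate number, so p-values measure the spread between these samples.

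The members and lists were chosen with earlier results of these data known. Named genes were the 6 members, the 3 smallest-p genes of each related list, fixed pathway genes, and the genes of highest correlation with the Cyp2b mean (6) and Nr1i3 (4); genes named beyond these were chosen after their values were seen. Lists of the growth hormone axis, liver zones and other cell types were also drawn up and are summarised in the closing section. Alternatives were turned signs, quantile and scale normalization, array weights, the probe of largest SD, left-out replicates and a replicate block.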

Additional observations from a re-analysis of the deposited data

Results flagged for a closer look

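Of 104 groups of 4 or 6 values examined for a library that stands apart, 4 had one; chance gives about 1 in 20 groups. Nr1i2 in wild-type replicate 4 was at -0.10, with the nearest wild-type library at 0.18. Sult1d1 in Tgfbr2+/- replicate 3 was at 0.0452, with the nearest of its group at -0.53. Olfr482 in Tgfbr2+/- replicate 6 was at -1.51 against -0.15 for the nearest, and this library was the lowest for Nr1i3. The median of the Kupffer cell and macrophage markers in Tgfbr2+/- replicate 3 was 0.0249 against 0.22 for the nearest, and this library had the highest Cyp2b values of its group.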

How the results depend on the processing

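The 48 differences of the Cyp2b genes over 16 alternatives each all stayed below 0; Cyp2b13 was at -0.68 with Tgfbr2+/- replicate 5 turned. The Cyp2b mean ran from -1.78 to -1.28 when 1 library was left out. Genes called between the genotypes were 0 in 17 of 18 alternatives and 0 to 10 with 1 library left out (10 without Tgfbr2+/- replicate 3). For wild type against the pool, 1 gene was called without Tgfbr2+/- replicate 5, otherwise 0. For Tgfbr2+/- against the pool, the count of 2 became 1 with wild-type replicate 1 turned, 0 with Tgfbr2+/- replicate 5 turned, 1 with quantile normalization, 10 with array weights, and 0 to 48 with 1 library left out (48 without Tgfbr2+/- replicate 3, 10 without wild-type replicate 4). With Tgfbr2+/- replicate 5 turned, the CAR and PXR median was -0.036 and the female-biased median -0.0712; the cause was not tested. With the replicate number as a block (replicates 1 to 4), 0 genes were called and the Cyp2b mean differed by -1.50. Deviations of same-numbered samples from their group means correlated at 0.03, 0.08, 0.31 and 0.07. Differently numbered samples were not set beside these, so pairing was not tested. The numbers were not taken to pair the mice in the main fit. Results on Por could not be run, as it has no probe. Signal over background was not used here, and the 10 arrays limit what can be seen.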

Other observations

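Gene lists outside the account of the Cyp2b genes are given here as values only, as median differences of Tgfbr2+/- minus wild type, beside 0.0044 for all genes; no gene of these lists passed limma's adjusted test. The growth hormone axis, which sets sex-biased expression in liver, had 11 of 13 genes measured and a median of 0.0016, with 0 past an unadjusted p of 0.05. Pericentral markers, of the zone where Cyp2b10 is mainly induced, had a median of -0.0014 over 10 of 12 genes, and periportal markers -0.06 over 6 of 12. Neutrophil markers had a median of 0.06 with 9 of 10 above 0, and 3 of them were higher at an unadjusted p under 0.05, as were 2.97% of all genes. The medians were 0.02 for 13 lymphocyte, 0.01 for 12 endothelial, -0.07 for 11 stellate and fibroblast, -0.0079 for 6 cholangiocyte, -0.07 for 6 erythroid and 0.05 for 9 pancreas, gut and fat markers. Their part in the Cyp2b difference was not tested.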
